A study of Mus musculus with 6 samples.

Results

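The claudins examined here are Cldn3, Cldn4, Cldn5, Cldn6, Cldn7, Cldn9, Cldn12 and Cldn23, 8 of the 55401 genes in the count table, taken by gene symbol. They were measured by strand-specific RNA-seq of total RNA from V6.5 mouse embryonic stem (ES) cells, a hybrid ES line. The comparison was between 3 libraries of WT cells and 3 of Cdh1-/- cells of the same line, both lettered A, B and C, with no treatment named for either genotype. Cdh1 encodes E-cadherin, the cell adhesion receptor of adherens junctions, and the series asks how it acts on beta-catenin in these cells. How the knockout was made, whether it is 1 clone and whether the letters mark separate cultures are not given in the sources used here, so p-values measure only the spread between these libraries, which may be technical.

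Claudins are membrane proteins that form the strands of tight junctions. Their extracellular loops pair across neighbouring cells and set which ions and solutes pass between them, and most end in a short tail that binds the PDZ domains of ZO scaffold proteins such as Tjp1. Tight junctions usually assemble beside adherens junctions. In the early mouse embryo, claudins such as Cldn4 and Cldn6 are made in the trophectoderm, where they seal the blastocyst, and Cldn6 is also a known surface marker of pluripotent cells.

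The family's hallmark lies in the extracellular loop nearest the start of the protein, a tryptophan, then glycine-leucine-tryptophan and 2 cysteines. It is shown here for the 4 claudins that make up most of the summed transcript level of these 8. Given is the coding sequence from the tryptophan to the last of these cysteines, read from GRCm38 with the GENCODE annotation, with the hallmark codons in capitals. All of these stretches lie inside 1 coding exon.
Cldn4: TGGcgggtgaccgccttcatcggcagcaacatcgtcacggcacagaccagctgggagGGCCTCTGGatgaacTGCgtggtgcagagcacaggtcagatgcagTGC
Cldn6: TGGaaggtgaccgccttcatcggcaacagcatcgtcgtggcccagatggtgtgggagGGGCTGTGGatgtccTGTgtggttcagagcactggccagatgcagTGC
Cldn7: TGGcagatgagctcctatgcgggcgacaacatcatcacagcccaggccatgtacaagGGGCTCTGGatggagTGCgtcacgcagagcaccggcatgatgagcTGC
Cldn12: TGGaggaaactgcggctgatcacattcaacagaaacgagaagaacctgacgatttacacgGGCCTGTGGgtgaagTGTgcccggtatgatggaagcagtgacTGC
The stretch of Cldn4 is at chr5:134946554-134946658 on the minus strand, that of Cldn6 at chr17:23681151-23681255 on the plus strand, that of Cldn7 at chr11:69966014-69966118 on the plus strand and that of Cldn12 at chr5:5508225-5508329 on the minus strand. All 8 predicted proteins held the hallmark. The last 2 residues were tyrosine and valine, the end of the PDZ-binding tail, in 6 of the 8 proteins, and were not in Cldn12 and Cldn23. Amino acid identity over the 28 pairs ran from 25.1% (Cldn6 and Cldn12) to 71.4% (Cldn6 and Cldn9), with a median of 46.8%, and Cldn3 and Cldn4 shared 68.4%. No pair of the annotated transcripts shared a stretch of 50 bases (0 of 28 pairs).

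The libraries held from 18020719 to 23381942 counts, and 17325 genes were tested. Levels are given in CPM, counts scaled to library size with TMM factors, and genes count as called where edgeR's quasi-likelihood test gave an adjusted p under 0.05. Cdh1 itself was at 537 to 571 CPM in WT and at 166 to 183 CPM in the knockout libraries. On the second principal component, knockout replicate A stood apart at 43.5, against -11.7 and -25.8 for the other knockout libraries and -23.8 to 8.99 for WT, so results that move without it are given both ways. Of the ES cell markers 2 of 10 were called, both higher in the knockout (Tdgf1 and Fgf4), beside 7.60% of all tested genes called higher, and their summed level was 4824 to 5223 CPM in the WT libraries and 5435 to 6470 CPM in the knockout.

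Claudin levels were compared between genes per kilobase of exon (RPKM). The order of the 8 mean levels was the same in both genotypes: Cldn4, Cldn6, Cldn7, Cldn12, Cldn3, Cldn9, Cldn5 and Cldn23. In WT, Cldn4 was at 28.5 ± 2.74 RPKM (SD, n = 3), Cldn6 at 25.6 ± 2.95, Cldn7 at 16.1 ± 2.09 and Cldn12 at 10.7 ± 1.44. In the knockout, the RPKM levels were 30.7 ± 7.89 for Cldn4, 21.6 ± 4.68 for Cldn6, 12.7 ± 4.98 for Cldn7 and 12.3 ± 0.697 for Cldn12 (SD, n = 3). These 4 genes held 92.6% to 94.7% of the summed level of the 8 claudins in every library. A step below them came Cldn3 at 2.40 ± 0.428 RPKM in WT and 3.07 ± 1.60 in the knockout, Cldn9 at 2.08 ± 0.362 and 1.53 ± 0.159, and Cldn5 at 0.508 ± 0.169 and 0.886 ± 0.385. Among neighbours in this order, the library ranges overlapped for Cldn4 and Cldn6 and for Cldn3 and Cldn9 in WT, and for Cldn6 and Cldn7 and for Cldn7 and Cldn12 in the knockout. Those neighbours did not differ beyond their spread, and the others did not overlap.

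The summed claudin level was 86.9, 86.5 and 84.6 RPKM in libraries A, B and C of WT, and 102, 69.0 and 77.6 RPKM in the knockout. The WT libraries were close together, while knockout replicate A lay above all of them and replicates B and C below. The means were 86.0 ± 1.25 and 82.9 ± 17.1 RPKM (SD, n = 3). In bulk RNA, fewer cells that make a transcript and less of it per cell cannot be told apart.

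**Figure D1:**
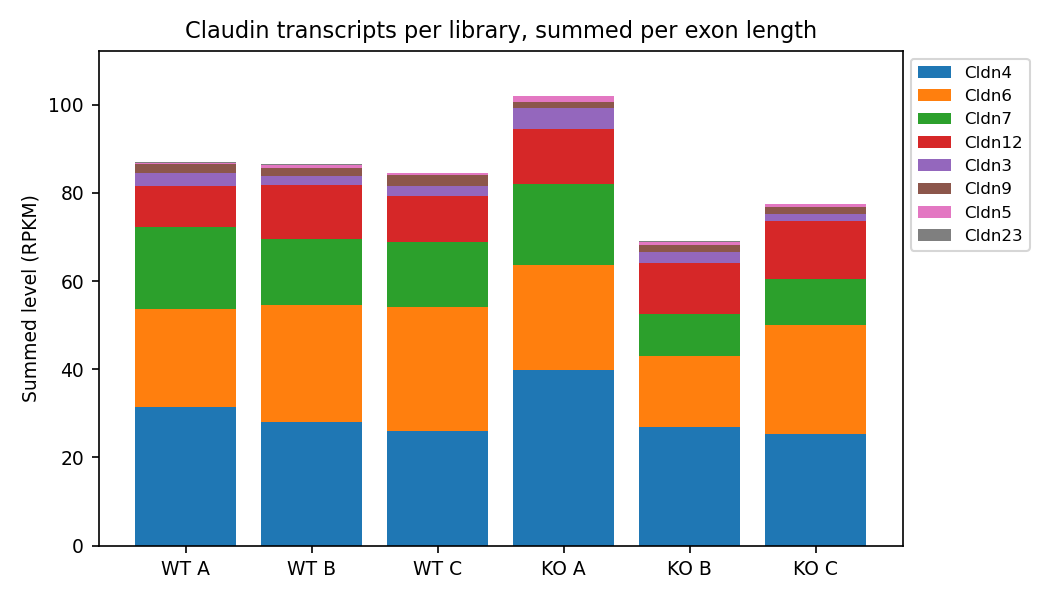
Summed level of the 8 claudins in each library, in RPKM, with each segment 1 claudin. The 3 WT bars stand between 84.6 and 86.9 RPKM, and the knockout bars spread from 69.0 to 102 RPKM, and the 4 lowest segments, Cldn4, Cldn6, Cldn7 and Cldn12, hold 92.6% to 94.7% of each bar.

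None of the claudins was called between genotypes. Of the 8, 7 passed the filter on low counts, and 0 of these 7 had an adjusted p under 0.05, against a background of 13.3% of all tested genes. At an unadjusted p under 0.05 the count was also 0, beside 4622 of all 17325 tested genes. DESeq2 and limma-voom called 0. In other edgeR fits this unadjusted count was 2 with no filter (8 tested) and 2 without knockout replicate A. It was 1 with the letter as a replicate block and 1 without WT replicate B. The share of all tested genes under that threshold was not counted in these other fits. The log2 fold change, knockout over WT, was above 0 for 4 and below 0 for 3, with a median of 0.10 beside -0.01 for all tested genes. The median size of the change, whatever its sign, was 0.34 beside 0.23 for all tested genes. The library ranges of the genotypes were apart for 1 of 7 claudins, beside 30.7% of all tested genes.

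Cldn4, a barrier claudin of many epithelia and a receptor of a clostridial enterotoxin, lies on chromosome 5 with a single coding exon. Its levels were 57.1, 50.9 and 47.2 CPM in libraries A, B and C of WT and 72.2, 48.8 and 46.1 CPM in the knockout. Replicate A was the highest library of both genotypes, and the groups overlapped. The log2 fold change was 0.10 (SE 0.15, 95% interval -0.21 to 0.42, edgeR adjusted p = 0.713), an interval of 0.864-fold to 1.34-fold.

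Cldn6, the claudin most associated with pluripotent and embryonic epithelial cells, lies on chromosome 17. It was at 38.4, 45.5 and 48.3 CPM in WT and at 41.0, 27.9 and 42.5 CPM in the knockout. Knockout replicate B was the lowest, and the other 2 knockout libraries lay within the WT range. The log2 fold change was -0.25 (SE 0.15, 95% interval -0.57 to 0.07, edgeR adjusted p = 0.314).

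Cldn7, which binds the adhesion protein Epcam and is also found along lateral membranes outside the tight junction, lies on chromosome 11. It is the only one of the 8 with more than 1 coding exon, having 4. Its levels were 27.3, 22.2 and 21.8 CPM in the WT libraries and 27.2, 13.8 and 15.4 CPM in the knockout. Knockout replicates B and C were below every WT library, and knockout replicate A was level with the highest of them. The log2 fold change over all 6 libraries was -0.34 (SE 0.21, 95% interval -0.79 to 0.10, edgeR adjusted p = 0.325). Its partner Epcam was at 148, 163 and 164 CPM in WT and at 196, 145 and 157 CPM in the knockout, again with replicate A the highest knockout library, and had a log2 fold change of 0.07 (edgeR adjusted p = 0.750).

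Cldn12, which lacks the PDZ-binding tail and has been linked to calcium passage between cells, lies on chromosome 5, apart from Cldn3 and Cldn4. It was at 36.8, 48.0 and 41.4 CPM in WT and at 48.8, 45.7 and 51.2 CPM in the knockout. Knockout replicates A and C were above every WT library, and replicate B lay within the WT range. Its difference was 0.21 on the log2 scale (SE 0.11, 95% interval -0.04 to 0.45, edgeR adjusted p = 0.267), the narrowest interval of the family.

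Among the claudins with low levels, Cldn3, a barrier claudin and the close relative of Cldn4, was at 3.65, 2.68 and 2.75 CPM in WT and at 6.14, 3.19 and 2.27 CPM in the knockout. Only knockout replicate A was above the highest WT library, and replicate C was the lowest of all 6. This gave a log2 fold change of 0.34 (95% interval -0.39 to 1.08, edgeR adjusted p = 0.582). Of its exon bases, 3.18% lie under Wbscr25, a gene of the other strand, and how strand was treated in counting is not given in the sources used here.

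Cldn9, a claudin of the inner ear that is needed for hearing, was at 2.79, 2.63 and 3.60 CPM in WT and at 1.99, 2.45 and 2.17 CPM in the knockout. It was the 1 claudin whose genotypes did not overlap. This came to a log2 fold change of -0.44 (SE 0.29, 95% interval -1.07 to 0.18, edgeR adjusted p = 0.370).

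Cldn5, the main claudin of blood vessel endothelium, was at 0.450, 0.909 and 0.800 CPM in WT and at 1.88, 0.874 and 1.01 CPM in the knockout, from 10 to 34 counts in a library. Knockout replicate A was the highest, replicate C was also above every WT library, and replicate B lay within the WT range. Its log2 fold change of 0.79 came with the widest interval of the family (SE 0.48, 95% interval -0.23 to 1.82, edgeR adjusted p = 0.323). Of the endothelial markers 1 of 9 tested was called, beside 13.3% of all tested genes. This was Pecam1, which was lower in the knockout and is also made by ES cells. Their summed level was 147 to 159 CPM in the WT libraries and 107 to 133 CPM in the knockout. Without Pecam1 it was 30.9 to 39.1 CPM in WT and 32.7 to 45.4 CPM in the knockout, mostly from Egfl7 at 18.6 to 22.4 CPM and Tek at 3.70 to 13.6 CPM. Emcn was at 0 in every library, and Cdh5, which defines endothelium, was at most at 0.706 CPM. Cldn23, a claudin known from intestinal epithelium, had 6, 8 and 0 counts in WT and 0, 6 and 2 counts in the knockout. It was above the floor of 6 counts in 1 library and was not tested.

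**Figure D2:**
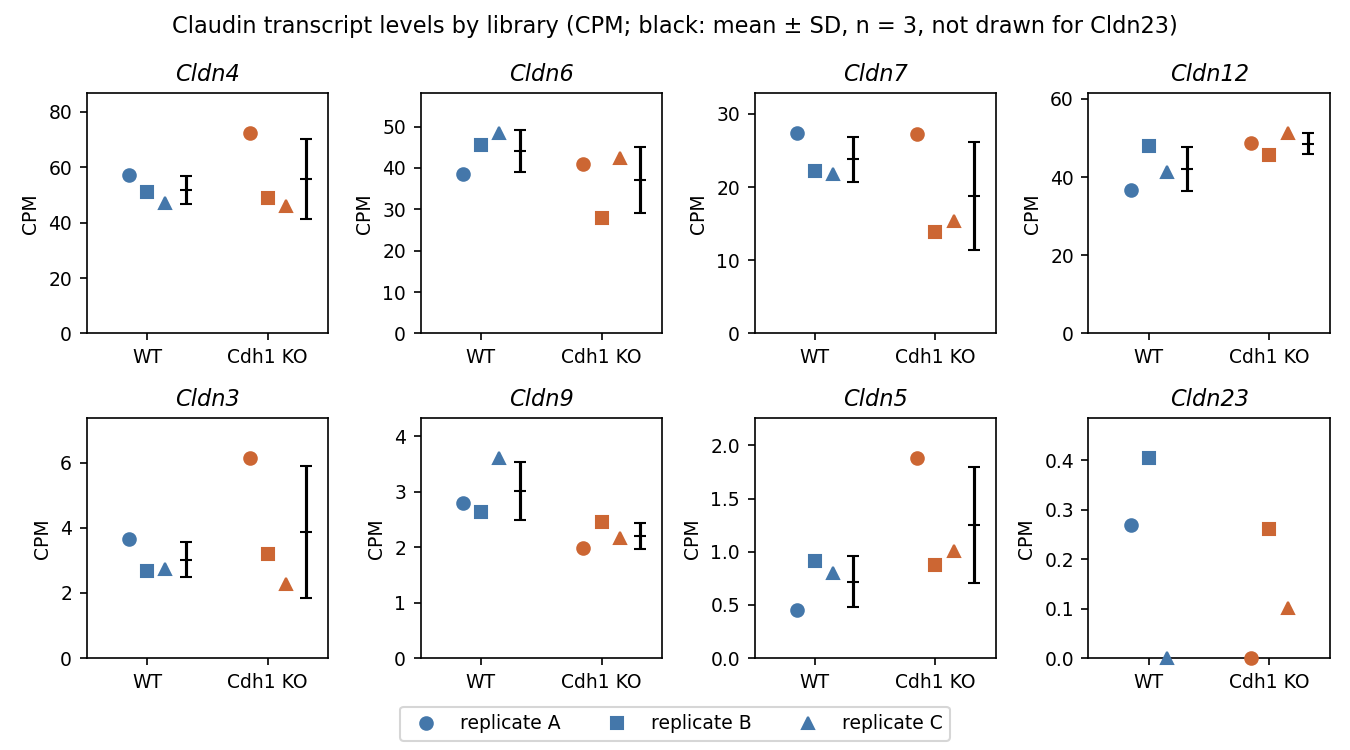
Level of each claudin in every library, in CPM on separate linear axes that start at 0, with circles, squares and triangles for replicates A, B and C and the mean ± SD in black (n = 3, not drawn for Cldn23). Knockout replicate A is the highest knockout library in 4 of the 7 tested claudins, Cldn3, Cldn4, Cldn5 and Cldn7, and Cldn9 is the 1 gene whose genotypes do not overlap.

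Knockout replicate A was often apart from its group. It was the highest knockout library for Cldn3, Cldn4, Cldn5 and Cldn7, which were 2.25, 1.52, 2.0 and 1.87 times the mean of knockout replicates B and C. For these 4 genes, from 2.49% (Cldn3) to 9.62% (Cldn4) of all tested genes had a higher ratio. The ratio was 1.17 for Cldn6, 1.01 for Cldn12 and 0.862 for Cldn9, with 26.7%, 48.2% and 74.7% of all tested genes higher. In WT, replicate A over the mean of B and C was 1.34 for Cldn3, 1.16 for Cldn4 and 1.24 for Cldn7, but 0.527 for Cldn5, so Cldn3, Cldn4 and Cldn7 were highest in replicate A of both genotypes.

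Without knockout replicate A, Cldn7 was called lower in the knockout, with a log2 fold change of -0.70 (SE 0.15, 95% interval -1.02 to -0.39, edgeR adjusted p = 0.00239), while 15.5% of all tested genes were called in that fit. It was 1 of 7 claudins. Cldn3 and Cldn4 then changed sign, to -0.14 (adjusted p = 0.829) and -0.12 (adjusted p = 0.524), and neither was called. Cldn6 was at -0.33 (unadjusted p = 0.0418, adjusted p = 0.160), Cldn9 at -0.38, Cldn5 at 0.39 and Cldn12 at 0.20, none of them called. Leaving out knockout replicate B or C moved Cldn7 the other way, to -0.15 (adjusted p = 0.741) and -0.21 (adjusted p = 0.662), and Cldn6 was at -0.065 (adjusted p = 0.822) without knockout replicate B. Cldn7 was below 0 when any 1 library was left out, and was called in 1 of these 6 fits.

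**Figure D3:**
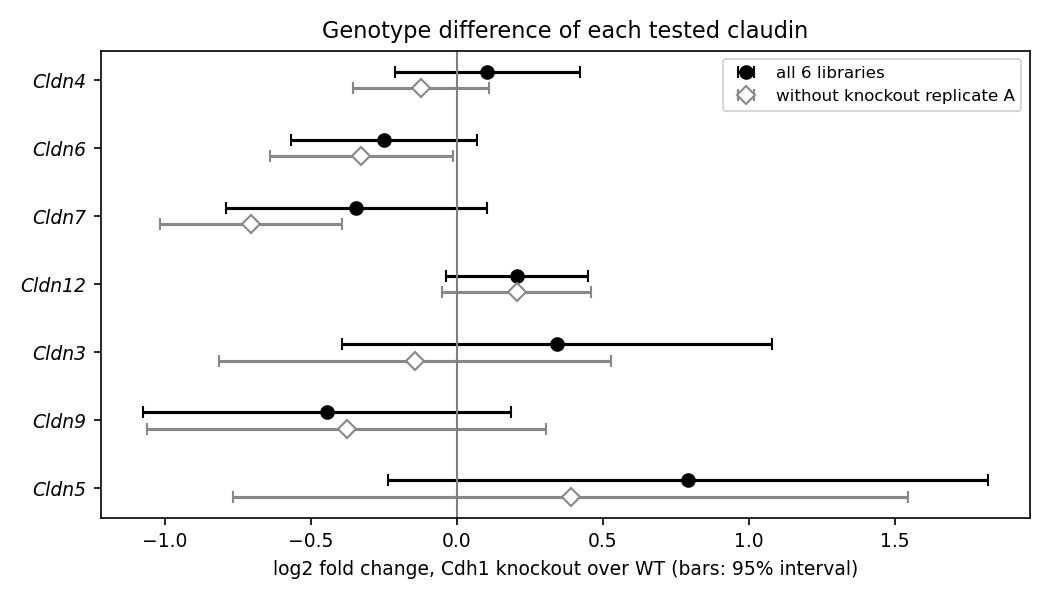
Log2 fold change, knockout over WT, of the 7 tested claudins with 95% intervals, from all 6 libraries (black circles) and without knockout replicate A (open diamonds). With all libraries every interval spans 0, and without that library the interval of Cldn7 runs from -1.02 to -0.39.

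Other transcripts moved with the A libraries. Of the feeder fibroblast markers above the floor somewhere, 6 of 8 were highest in replicate A of both genotypes. This stands beside 3 of 7 tested claudins and 13.0% of all tested genes. Among these 6, Dcn and Postn were above the floor only in A libraries and were not tested. They entered this count only through replicate A, and the 13.0% covers tested genes alone. Col3a1, a fibroblast collagen, was at 5.13, 0.606 and 1.0 CPM in WT and at 2.32, 0.0874 and 0.101 CPM in the knockout. The summed feeder markers were at 44.6 to 59.6 CPM in WT and at 51.2 to 68.6 CPM in the knockout. Without Fbn1 they were at 27.3 to 44.8 CPM in WT and at 19.9 to 32.2 CPM in the knockout. Of 6 tested, 2 were called, beside 13.3% of all tested genes, with Fbn1 higher and Col1a1 lower, and S100a4 was at 0. Of the endoderm markers above the floor somewhere, 2 of 11 were highest and 5 of 11 lowest in replicate A of both genotypes. Lowest there were also 8 of 32 listed tight junction partners and 7 of 25 listed interactors and regulators of claudins. None of the 7 tested claudins or 8 fibroblast markers was, and the share of all tested genes was not counted. Of the 2 endoderm markers highest there, Ttr was above the floor only in the A libraries and was not tested. Apoa1, a visceral endoderm gene among the highest, was at 6.08, 0 and 0.900 CPM in WT and at 5.97, 0.262 and 0.303 CPM in the knockout. Their part in the claudin levels was not tested.

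Of the endoderm markers 9 of 10 tested were called higher in the knockout, beside 7.60% of all tested genes, with summed levels of 62.8 to 96.6 CPM in the WT libraries and 169 to 345 CPM in the knockout, where replicate A was the lowest at 169 CPM. The 4 with the smallest adjusted p were Sox7, Gata4, Sox17 and Pdgfra. Sox7 and Gata4 lie on chromosome 14, where the median log2 fold change of 622 tested genes was 0.53, and Sox17 lies on chromosome 1, where the median of 1002 genes was -0.33. The tested claudins lie on chromosomes 5, 11, 16 and 17, with medians from -0.024 to 0.022. Of the trophectoderm markers 2 of 9 tested were called lower, Tfap2c and Tfap2a, beside 5.71% of all tested genes, and 7 were not called, with summed levels of 164 to 185 CPM in the WT libraries and 92.6 to 124 CPM in the knockout. Both cell types are known to make Cldn4, Cldn6 or Cldn7, and their part in the claudin levels was not tested.

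The promoters of Cldn3, Cldn4 and Cldn7, the claudins highest in replicate A of both genotypes, are shown as the 250 bases before an annotated start. They are from RefSeq on GRCm38.p6, 5' to 3' along the gene. For Cldn7 the start further upstream is shown, and another annotated start lies 642 bases downstream of it. Capitals mark matches to the motifs searched, on either strand, that lie wholly within these 250 bases.
Cldn3: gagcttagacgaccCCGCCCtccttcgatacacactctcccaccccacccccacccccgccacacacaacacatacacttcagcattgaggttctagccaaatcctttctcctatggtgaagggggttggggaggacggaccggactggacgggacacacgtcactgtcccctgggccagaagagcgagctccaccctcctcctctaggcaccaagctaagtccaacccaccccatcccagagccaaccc
Cldn4: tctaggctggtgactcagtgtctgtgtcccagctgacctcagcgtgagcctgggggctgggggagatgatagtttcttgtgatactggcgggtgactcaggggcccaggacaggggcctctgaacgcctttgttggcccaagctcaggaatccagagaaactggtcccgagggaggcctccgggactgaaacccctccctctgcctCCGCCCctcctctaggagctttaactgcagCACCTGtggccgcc
Cldn7: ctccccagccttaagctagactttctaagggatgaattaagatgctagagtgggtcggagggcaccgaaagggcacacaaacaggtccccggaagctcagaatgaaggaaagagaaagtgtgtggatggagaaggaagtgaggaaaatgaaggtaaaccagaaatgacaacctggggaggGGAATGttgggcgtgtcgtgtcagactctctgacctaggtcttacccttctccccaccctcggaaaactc
They lie at chr5:134985964-134986213 on the plus strand (Cldn3), chr5:134946935-134947184 on the minus strand (Cldn4) and chr11:69964529-69964778 on the plus strand (Cldn7). The capitals are a GC box in Cldn3, a GC box and an E-box in Cldn4, and a TEAD motif in Cldn7. Each motif was searched in windows from 250 bases before to 50 after each start. The GC box, the site of Sp and Klf factors, was searched as GGGCGG. The E-box, which Snail and Zeb repressors bind, was searched as CAGGTG. The TEAD motif, named for the factors of the Hippo pathway, was searched as CATTCC. The TCF core, bound by the DNA-binding partners of beta-catenin, was searched as CTTTGA. The Grainyhead motif, which Grhl2 and its relatives bind, was searched as AACNNGTT. The TATA box, a core promoter element, was searched as TATAAA. The octamer, which Pou5f1 binds, was searched as ATTTGCAT. No motif in this set contains another. The E-box was present in the windows of Cldn3 (in the 50 bases after the start), Cldn4 and Cldn6 and in a window of Cldn7 whose start lies 642 bases further downstream. That Cldn7 window is not printed, and it also held a GC box but no TEAD motif. The E-box was in 20.2% of all 32851 windows. The shares of all windows were 35.7% for the GC box, 14.7% for the TEAD motif, 16% for the TCF core, 4.2% for the Grainyhead motif, 13.6% for the TATA box and 1.74% for the octamer. No window of Cldn3, Cldn4, Cldn5, Cldn6, Cldn7 or Cldn12 held the TCF core, the TATA box or the octamer, which says only that these letters are not there.

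Several claudins are neighbours in the genome. Cldn4 and Cldn3 lie 39279 bases apart on chromosome 5, on opposite strands, and Cldn6 and Cldn9 lie 137 bases apart on chromosome 17 and converge. Each pair holds 1 abundant and 1 sparse gene, with WT levels of 28.5 and 2.40 RPKM for Cldn4 and Cldn3 and of 25.6 and 2.08 RPKM for Cldn6 and Cldn9. Within 100 kb of the 8 claudins there were 76 annotated genes, of which 46 were tested and 1 was called, beside 13.3% of all tested genes. This was Gtpbp10, a GTP-binding protein gene 22581 bases from Cldn12, at 72.4 ± 5.45 CPM in the WT libraries and 56.3 ± 3.69 CPM in the knockout (SD, n = 3), with a log2 fold change of -0.36 (edgeR adjusted p = 0.0209). It was not called when WT replicate B or C or knockout replicate B or C was left out, with an adjusted p of up to 0.109.

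A further 15 claudin genes of the table were taken by symbol, with the Cldn34 family left out. Of these, 9 were at or under the floor of 6 counts in all libraries, 6 of them at 0 throughout. The 2 with enough counts to be tested were Cldn19 and Cldn20, both at levels like those of the sparse claudins above. Neither was called by edgeR's test, 1 of them having an unadjusted p under 0.05, as had 4622 of all 17325 tested genes. Cldn19, a claudin of the kidney's ascending limb that is needed for magnesium recovery, was at 2.25, 1.92 and 1.70 CPM in WT and at 2.98, 2.88 and 3.78 CPM in the knockout. Its genotypes did not overlap, and the log2 fold change was 0.71 (95% interval 0.08 to 1.35, unadjusted p = 0.0307, edgeR adjusted p = 0.138). Cldn20 had a log2 fold change of -0.28 (edgeR adjusted p = 0.714).

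The other proteins of the tight junction were measured for comparison. Of 32 listed partners, all 32 were tested and 6 were called, beside 13.3% of all tested genes. Of these, 2 were higher (7.60% of all tested genes were called higher) and 4 were lower (5.71% were called lower), with a median log2 fold change of -0.10. Jam2, an adhesion molecule of the junction, was at 144 ± 33.7 CPM in the WT libraries and 426 ± 99.9 CPM in the knockout, a log2 fold change of 1.56 (edgeR adjusted p = 3.4e-05). Ocln, occludin, the other main strand protein, was at 19.3 ± 3.75 and 28.2 ± 2.39 CPM (0.55, adjusted p = 0.0199). It was not called without WT replicate A, WT replicate B or knockout replicate C, with an adjusted p of up to 0.119.

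Mpdz, a multi-PDZ scaffold that binds claudin tails, was at 38.0 ± 3.35 CPM in the WT libraries and 15.6 ± 1.92 CPM in the knockout, a difference of -1.28 on the log2 scale (edgeR adjusted p = 1.7e-05). Marveld3, a strand-associated relative of occludin, fell from 7.73 ± 1.05 to 3.72 ± 0.391 CPM (-1.05, adjusted p = 0.00443). Arhgef2, a nucleotide exchange factor held at junctions, fell by 0.44 on the log2 scale (adjusted p = 0.00641), as did Ybx3, a transcription factor bound by Tjp1, by 0.34 (adjusted p = 0.0192). Ybx3 was not called without any 1 of the 3 WT replicates or without knockout replicate C, with an adjusted p of up to 0.109. Among partners that were not called, the log2 fold change of the ZO scaffold Tjp1 came to -0.22 (edgeR adjusted p = 0.105). That of Marveld2, tricellulin, came to -0.06 (0.884) and that of F11r, the JAM-A adhesion molecule, to -0.25 (0.142). F11r lies on chromosome 1, where the median of 1002 tested genes was -0.33.

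Of 25 listed interactors and regulators of claudins, 24 were tested and 10 were called, beside 13.3% of all tested genes. Of these 10, 8 were higher, beside 7.60% of all tested genes, and 2 were lower, beside 5.71%. The median log2 fold change of the list was 0.23. Zeb2, a repressor of epithelial genes, was at 10.7, 13.1 and 10.1 CPM in the WT libraries and 2.1, 3.23 and 3.18 CPM in the knockout, a log2 fold change of -1.98 (edgeR adjusted p = 4.3e-05). Gata4, an endoderm factor, rose by 1.70 on the log2 scale (adjusted p = 0.000225). Klf4, a factor of epithelia and of ES cells, rose by 1.12 (adjusted p = 0.000398) and Klf5 by 0.79 (adjusted p = 0.00735, but 0.0684 without WT replicate B), both Klf5 and Gata4 lying on chromosome 14. St14, the protease matriptase that cleaves Epcam, rose by 0.63 (adjusted p = 0.000797), and its inhibitors Spint1 and Spint2 rose by 0.41 (0.00554) and 0.37 (0.0142). Twist1, a repressor of epithelial genes, rose by 1.32 (0.00867). Spint2 was not called without WT replicate A or WT replicate B (adjusted p of up to 0.0874).

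Grhl2, a Grainyhead factor that activates claudin genes, was lower by a log2 fold change of -0.79 (edgeR adjusted p = 0.0325). Foxa2, an endoderm factor, had 6, 6 and 4 counts in WT, at or under the floor in each library, and 20, 12 and 32 counts in the knockout. It passed the filter only through the knockout, so its call (adjusted p = 0.0298), counted among these 10 and among the 9 endoderm markers, supports nothing about either list. Leaving out any of WT replicates A, B and C or knockout replicate C ended both calls, and for Grhl2 so did leaving out knockout replicate B, with adjusted p of up to 0.135 (Grhl2) and 0.180 (Foxa2). Esrp1, an epithelial splicing factor, chosen after its values were seen, was at 48.1, 57.3 and 41.2 CPM in WT and at 48.6, 20.7 and 19.2 CPM in the knockout. Like Cldn7, it was level with WT in knockout replicate A and lower in replicates B and C, with an adjusted p of 0.0832 in all libraries and 1.8e-06 without that library (log2 fold change -1.29). In that fit 5 other listed genes were also called that had not been, Hnf4a, Rab13 and Esam higher and Cgnl1 and Grhl1 lower.

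**Figure D4:**
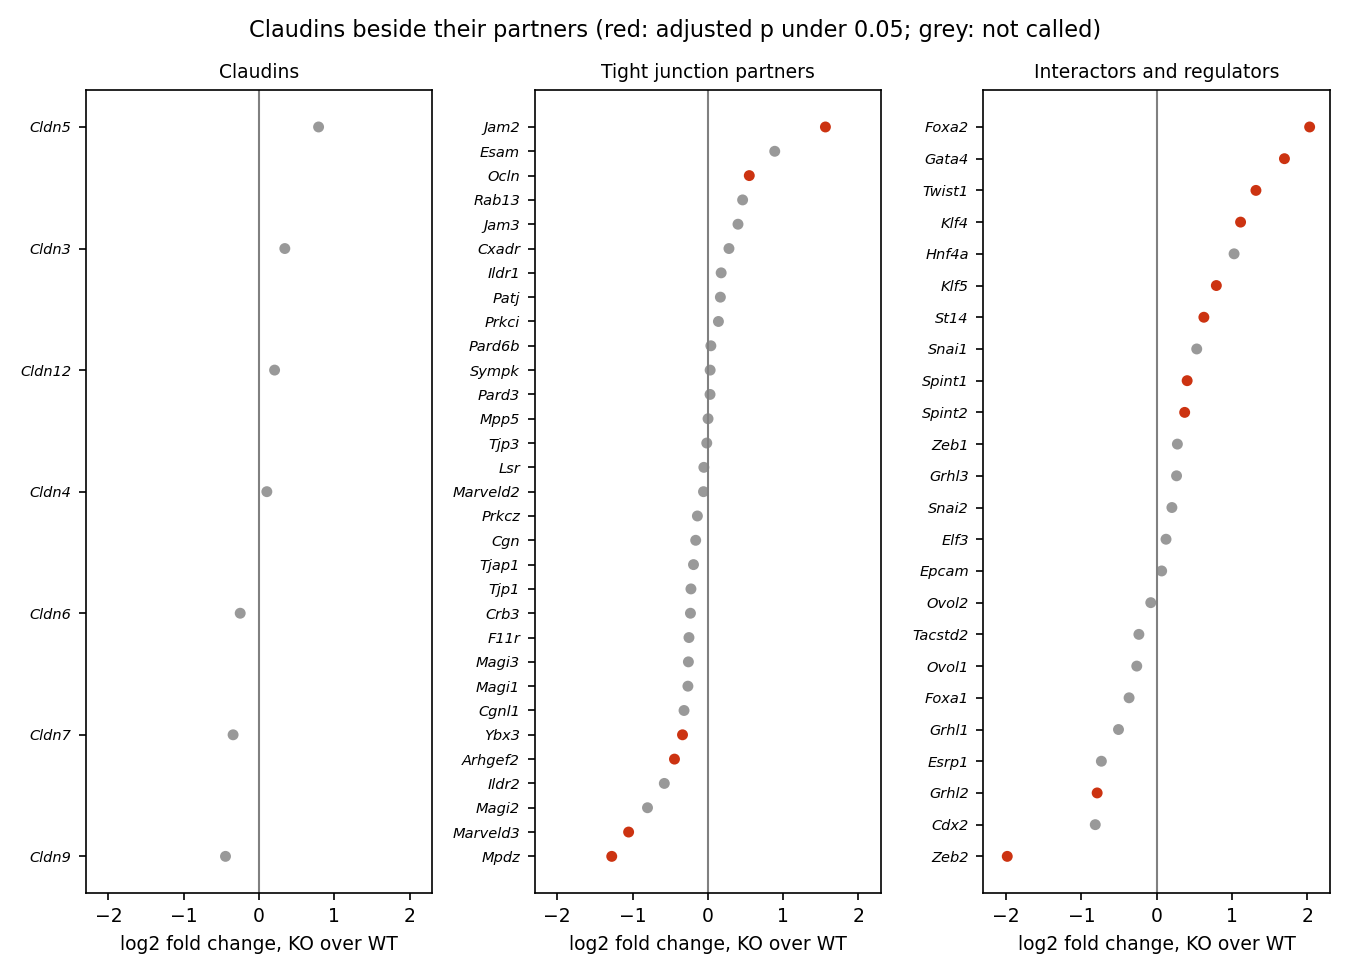
Log2 fold change, knockout over WT, of the tested claudins, tight junction partners (1 that was not called is not drawn) and listed interactors and regulators, in separate panels on 1 scale, with red for an adjusted p under 0.05 and grey for genes that were not called. The 7 claudins are all grey and lie between -0.44 and 0.79. Red are 6 of 32 partners and 10 of 24 regulators, beside 13.3% of all tested genes called. These 10 include Foxa2, which passed the filter only through the knockout.

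The genes whose pattern over the 6 libraries was most like that of Cldn4, the most abundant claudin, were found among 11331 tested genes with a mean of at least 5 CPM. The measure was the root mean square difference of log2 CPM, each gene centred on its WT mean. These were Fam102b (0.0449), Aim2 (0.0558), Tnfrsf13c (0.0653), 1600020E01Rik (0.0665) and Irf8 (0.0671). Fam102b was at 15.2, 13.0 and 11.3 CPM in WT and at 18.2, 12.1 and 11.8 CPM in the knockout. Replicate A was its highest library in both genotypes, which the choice by likeness to Cldn4 brings with it.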

How the data were processed

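Total RNA was sequenced from 3 WT and 3 Cdh1-/- libraries, grouped by the sample titles. The single file that the authors deposited holds raw, unnormalized counts for each gene. Per the submitters' processing notes, cutadapt 2.10, STAR 2.7.5b and featureCounts 2.0.1 were used, with the build GRCm38. The strand and mate settings are not given in the sources used here. Between 78.1% and 83.1% of counts from 1 to 10 were even, so the floor was set at 6 counts per library, 3 pairs if both mates were counted. Floors and intervals cover counting error or the spread between these libraries only.

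The main test was edgeR 4.0.16 in R 4.3.3 (filterByExpr, TMM, glmQLFit and glmQLFTest with genotype as the only term), with Benjamini-Hochberg adjustment over 17325 genes. RPKM used the exon lengths in the table. DESeq2 1.42.0, limma 3.58.1 (voom), other scalings and filters, halved counts, a replicate block and leaving out each library were the alternatives. Protein identities came from global alignments in Biopython 1.88.

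The members and lists were chosen with earlier results of these data known. Named beside the 8 claudins and Cdh1 were the 2 most abundant other claudins, the called genes of each list (at most 8 by adjusted p, at most 4 for markers), Ocln, Tjp1, F11r, Marveld2 and Epcam, and the 5 genes most like Cldn4. Col3a1, Apoa1, Dcn, Postn, Ttr, Esrp1, Grhl2, Foxa2, Egfl7, Tek, Sox18, Tie1, Kdr and Erg were added after their values were seen. So were the other genes called only without knockout replicate A and the markers given at or near 0. Mpp5 stands for Pals1 in the table. A further partner that the rule names, counted in its list, is not reported here.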

Additional observations from a re-analysis of the deposited data

How the results depend on the processing

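The 7 tested claudins stayed uncalled under RLE and upper-quartile scaling, library totals, no filter, DESeq2, limma-voom and a replicate block, and the 6 that remained in the test (Cldn5 dropped out) under a filter of 1 CPM in 3 libraries and under halved counts. Leaving out 1 library gave 0 to 1 claudins called, 0 to 1 called lower (Cldn7 without knockout replicate A) and a median log2 fold change of the claudins from -0.14 to 0.20. Cldn3 and Cldn4 reversed without knockout replicate A, and over the 6 omissions ran from -0.14 to 0.62 and from -0.12 to 0.23. The claudin median was -0.084 under the 1 CPM filter and -0.084 under halved counts, where fewer claudins were tested. The same omissions gave 1 to 4 partners called higher (1 without WT replicate A, B of WT or knockout replicate C, 4 without knockout replicate A), 6 to 13 regulators called (6 without WT replicate B), 5 to 9 of them higher (5 without WT replicate B) and 1 to 4 lower (1 without WT replicate A, WT replicate B, knockout replicate B or knockout replicate C, 4 without knockout replicate A). They also gave 0 to 2 neighbours (2 without knockout replicate A), and 1374 to 2784 genes called in all (1374 when WT replicate A was left out, 1470 when it was WT replicate B). Neighbours called were 2 with no filter and 0 at an adjusted p under 0.01, where 1242 genes were called. The cause of these shifts was not tested. No scaling moved the median of all genes by more than 0.1. Same-lettered libraries' deviations correlated at 0.145 (A), -0.0259 (B) and 0.233 (C) over 17325 genes. Whether the letters mark pairs was not tested, and the main test did not use them. With the letter as a replicate block, 2686 genes were called in all, against 2307 in the main test. In that fit 4 regulators were called lower, 2 neighbours were called, and Cldn7 was at -0.39 (edgeR adjusted p = 0.0893). The depth limits Cldn23, the other sparse claudins and, by the width of its interval, Cldn5.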
